A study of Rattus norvegicus with 6 samples.

Results

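The collagen genes of rat cortical neural progenitors were examined in 4 libraries of polyA-selected mRNA. The members are the gene names that begin with Col, a number, the letter a and a number. The tables hold 28 such names among 17337. Of these, 27 encode collagen chains, and 1, *Col4a3bp*, encodes a ceramide transfer protein that carries a collagen name only because it was described as a binding partner of a type IV chain. *Col4a3bp* is given with its values and was kept out of every sum and count of collagens.

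The study mapped RNA polymerase II initiation and pausing and measured polyA RNA in the same kind of cells. Cells were taken from cortices of embryonic day 14 Sprague Dawley rats of either sex, expanded with 20 ng/ml bFGF and 20 ng/ml EGF and harvested following their second passage. The cultures were untreated and there is 1 condition, with 2 biological replicates, A and B, each sequenced as 2 technical libraries (A1 and A2, B1 and B2). Whether the embryos of a replicate were pooled is not given in the sources used here. Since there is a single condition, a difference between A and B is, by the sample labels, a difference between replicate cultures. Column names in a list that accompanies the paper can be read as pairing A1 with B1 and A2 with B2. Under that reading the differences between A and B given here would lie within replicates, and the SDs over n = 2 would not be those between cultures. Levels are in FPKM, a count of sequenced fragments divided by transcript length and library total, and can be set side by side between genes. Values of single libraries are listed as A1, then A2, then B1, then B2. Technical libraries were averaged within a replicate, so that each mean ± SD is over n = 2. A p-value was not computed, because the design has no groups to test.

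Collagens are secreted proteins whose chains wind around one another in a helix with a glycine at regular intervals. Fibrillar collagens (types I, II, III, V, XI and XXVII, among others) assemble into the fibres of connective tissue and of the meninges, the sheaths around the brain. Type IV collagen forms the sheet of basement membranes, to which types XV and XVIII are attached, and the remaining types coat fibrils, form beaded filaments, anchor the skin or sit in the cell membrane. The cortex itself holds little fibrillar collagen, and its basement membranes lie beneath the meninges and around blood vessels.

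In these cultures 20 of the 27 chains had a mean of at least 1 FPKM, a level that 60.5% of all gene names reached. A mean of at least 10 FPKM was reached by 12 chains, and 6 had at least 100 FPKM. Those 6 were, in descending order, *Col3a1*, *Col1a1*, *Col1a2*, *Col4a1*, *Col6a2* and *Col18a1*. A further 7 chains were below 1 FPKM, and *Col4a4* was at 0 in every library, while 24 chains were above 0 in all 4. Of the 45 collagen chain names in the lists used here, 18, among them *Col4a2*, *Col4a5*, *Col6a1*, *Col6a3* and *Col12a1*, were not analysed here, so sums over a class are sums over its listed members only.

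Promoter sequence is shown for 4 chains, of which *Col1a2*, *Col5a2* and *Col18a1* were higher in replicate B by the rule given further on and *Col4a1* was not. The RefSeq table of promoters (build GRCr8, whereas the mRNA levels rest on rn6) holds 22 of the 27 chains (81.5%). *Col1a1*, *Col2a1*, *Col3a1*, *Col6a2* and *Col14a1* have no entry in it. Capitals mark matches to 3 motifs that were searched on both strands and do not overlap in the stretches shown. The first is the letters CCAAT, which appear as ATTGG where they lie on the opposite strand. The second is the TATA box, searched as TATAAA. The third is the GC box, searched as GGGCGG and seen as CCGCCC on the opposite strand.
Col1a2, fibrillar, GRCr8 chr4:33518327-33518407, plus strand: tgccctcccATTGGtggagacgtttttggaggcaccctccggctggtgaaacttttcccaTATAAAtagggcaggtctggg
Col5a2, fibrillar, GRCr8 chr9:55090152-55090251, minus strand: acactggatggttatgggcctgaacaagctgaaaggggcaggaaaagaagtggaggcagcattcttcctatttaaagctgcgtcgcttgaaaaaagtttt
Col4a1, basement membrane, GRCr8 chr16:84885417-84885516, plus strand: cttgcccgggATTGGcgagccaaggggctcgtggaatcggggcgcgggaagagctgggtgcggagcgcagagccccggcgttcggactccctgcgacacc
Col18a1, basement membrane, GRCr8 chr20:11473545-11473644, plus strand: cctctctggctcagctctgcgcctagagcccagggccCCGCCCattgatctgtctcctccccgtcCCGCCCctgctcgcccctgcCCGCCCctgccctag

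The *Col1a2* stretch covers the bases from 230 to 150 before the start that the table gives, because the table's start of this gene coincides with its first ATG. It holds a CCAAT box and a TATA box. The *Col4a1* stretch covers bases 180 to 81 before the start and holds a CCAAT box. Outside the stretch shown, *Col4a1* also has a GC box 16 bases before the start. The *Col5a2* and *Col18a1* stretches cover the last 100 bases, with 0 of the 3 motifs in *Col5a2* and 3 GC boxes in *Col18a1*. Over the 250 bases before the start, a GC box was found in 12 of the 22 chains against 30.5% of all 33469 promoters in the table. A CCAAT box was found in 6 of 22 chains against 34.0% of all promoters, and a TATA box in 3 of 22 against 12.9%. These are matches of letters, and the binding of a factor was not measured.

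**Figure D1:**
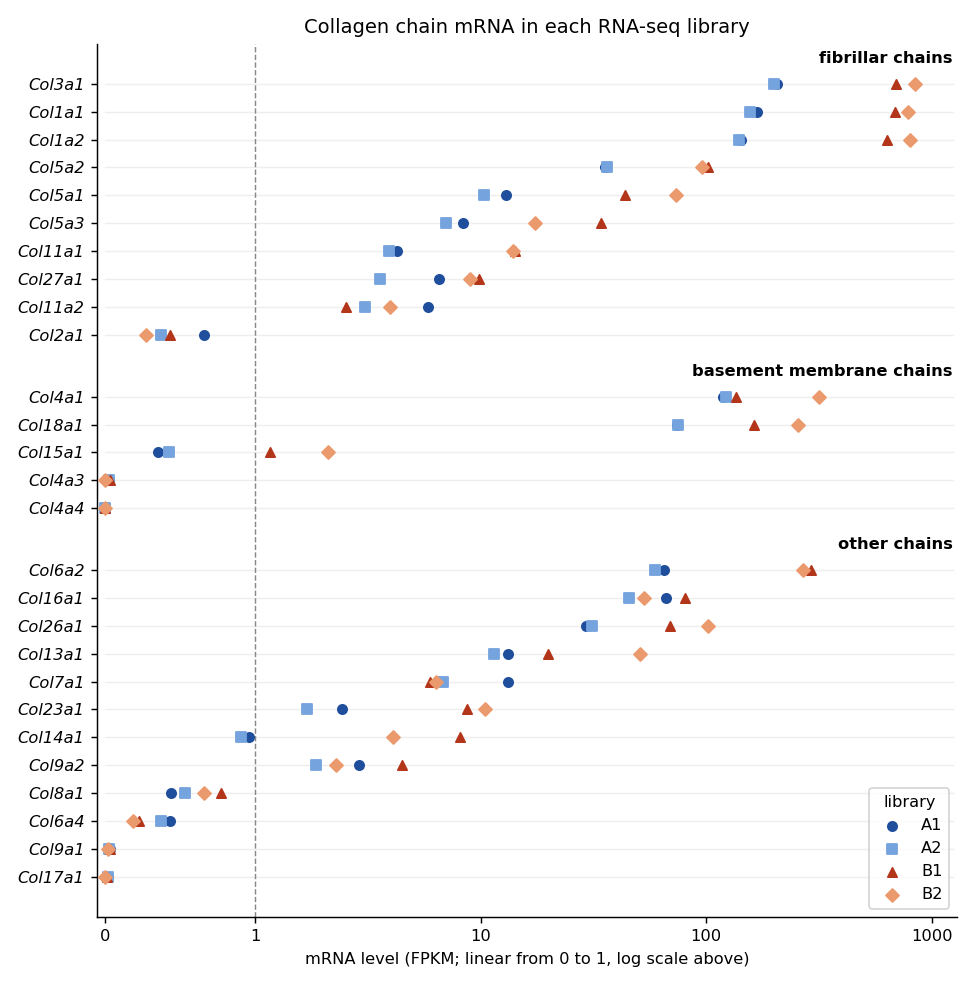
Level of each of the 27 collagen chains in the 4 libraries, in FPKM (linear from 0 to 1, log scale above; the dashed line is 1 FPKM), sorted by mean within fibrillar, basement membrane and other chains. Circles and squares are the libraries of replicate A (A1, A2), triangles and diamonds those of replicate B (B1, B2). For Col3a1, Col1a1 and Col1a2 both B libraries lie far to the right of both A libraries, and for Col4a1 only B2 stands apart, at 316 FPKM.

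The fibrillar class had the largest summed level and the 3 most abundant chains, although its median level over chains at 1 FPKM or more was 35.1 FPKM against 142 for the 3 basement membrane chains at that level. *Col3a1*, the single chain of type III collagen of elastic tissues, is located at 52023295 to 52059221 of chromosome 9 (rn6, plus strand). It had 207 and 200.4 FPKM in the A libraries and 694 and 841 in the B libraries, a mean of 486 ± 399 FPKM (SD, n = 2), and ranked 174 among the 17337 gene names. Both libraries of B were thus well above both of A, and the technical libraries of a replicate lay closer together than the replicates.

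*Col1a1* encodes the major chain of type I collagen, the main protein of connective tissue fibres, and lies on chromosome 10 from 82745801 to 82762790 on the plus strand. Its FPKM was 169 and 157 in the A libraries and 685 and 785 in the B libraries, a mean of 449 ± 405. *Col1a2*, the other chain of type I, had 143 and 139.9 FPKM in the A libraries and 637 and 798 in the B libraries, a mean of 429 ± 407. The means of *Col3a1*, *Col1a1* and *Col1a2* differed by less than the SD of each. *Col3a1* was highest of these genes in all 4 libraries, while *Col1a2* was above *Col1a1* only in B2.

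The level of *Col1a2* is less certain than that of the other chains. Its row spans 2039299 bp of chromosome 4, from 29529854 to 31569152, and overlaps 9 other gene names, among them *Sgce*, *Ppp1r9a* and *Pon2*, whereas the other 27 matched genes span 16863 to 286932 bp. Its read coverage per FPKM was also 0.5 of the library median in all 4 libraries, a feature of 0.945% to 1.22% of rows. As deposited, the ratio of *Col1a1* to *Col1a2* was 1.18 and 1.12 in the A libraries and 1.08 and 0.984 in the B libraries, a mean of 1.09 ± 0.0854. With *Col1a2* taken from its coverage the ratio was 2.18 ± 0.171. The direction between replicates is not touched by this reading, since the factor was the same in each library.

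Type V collagen is a minor component inside type I fibrils and controls their diameter. *Col5a2* had 35.6 and 36.3 FPKM in the A libraries and 102 and 95.5 in the B libraries. *Col5a1* was lower, at 12.9 and 10.4 in the A libraries and 43.7 and 73.2 in the B libraries. *Col5a3*, a further type V chain, had 8.32, 7.02, 34.0 and 17.5 FPKM in A1, A2, B1 and B2, so that the libraries of B differed from each other by more than the lower of them differed from A. The ratio of *Col5a1* to *Col5a2* was 0.362 and 0.286 in the A libraries and 0.430 and 0.767 in the B libraries. *Col5a2* and *Col3a1* are neighbours on chromosome 9 of rn6, tail to tail and 31866 bp apart, and they were not equally abundant: the mean of *Col5a2* was 67.3 ± 44.2 FPKM.

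Type XI collagen is the cartilage counterpart of type V and is made with type II. *Col11a1* had 4.27 and 3.93 FPKM in the A libraries and 14.3 and 13.9 in the B libraries. *Col11a2*, its partner chain, had 5.82, 3.07, 2.53 and 3.97 FPKM in the same order, and its libraries of A and B overlapped. The ratio of *Col11a1* to *Col11a2* was therefore 0.734 and 1.28 in the A libraries and 5.65 and 3.49 in the B libraries. *Col2a1*, the type II chain of cartilage, stayed between 0.278 and 0.663 FPKM. *Col27a1*, a fibrillar collagen of growth cartilage, had 6.51, 3.59, 9.88 and 8.99 FPKM.

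Among the basement membrane chains *Col4a1* was the most abundant. It encodes a chain of the type IV collagen that is found in nearly every basement membrane, and lies on chromosome 16 from 83522162 to 83632153. Its FPKM was 118 and 122 in the A libraries and 136 and 316 in the B libraries, a mean of 173 ± 74.8. B1 was close to the libraries of A, and B2 alone was high, so that the log2 difference between replicates was 0.78 with it and 0.18 without it. *Col18a1*, whose C-terminal end is released as endostatin, had 74.6 and 74.8 FPKM in the A libraries and 164 and 256 in the B libraries, with both B libraries above both A libraries. *Col15a1*, its relative, was near the limit of 1 FPKM, with 0.357 and 0.425 in A and 1.16 and 2.11 in B. *Col4a3* and *Col4a4*, chains of the specialised type IV network of kidney and lung, begin 567 bp apart on opposite strands of chromosome 9 in rn6. *Col4a3* had 0.0277, 0.0308, 0.0340 and 0 FPKM in A1, A2, B1 and B2, and *Col4a4* was listed at 0 in all.

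The other chains were led by *Col6a2*, which belongs to the beaded filaments that link cells to the matrix. It had 65.3 and 59.1 FPKM in the A libraries and 291 and 269 in the B libraries, a mean of 171 ± 154. *Col16a1*, a fibril-associated chain, had 66.6, 45.3, 80.9 and 53.1 FPKM, and its A and B libraries overlapped. *Col26a1*, a small collagen first described in testis and ovary, had 29.2 and 31.1 FPKM in A and 68.9 and 102 in B.

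The transmembrane collagens are anchored in the cell surface and shed their outer part. *Col13a1*, which is known from the neuromuscular junction, had 13.3 and 11.4 FPKM in the A libraries and 19.9 and 50.7 in the B libraries, and the B libraries were further from each other than B1 was from A. *Col23a1* had 2.43 and 1.71 FPKM in A and 8.67 and 10.4 in B. *Col17a1*, the hemidesmosome collagen of skin, did not exceed 0.0227 FPKM.

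*Col14a1*, which binds the surface of type I fibrils, had 0.962 and 0.904 FPKM in A and 8.07 and 4.08 in B. *Col9a2*, a chain of the type IX collagen that coats cartilage fibrils, had 2.89, 1.87, 4.46 and 2.29 FPKM, and its partner *Col9a1* had 0.0358, 0.0284, 0.0386 and 0.0230 FPKM, so that the ratio of *Col9a1* to *Col9a2* was at most 0.0152. *Col7a1*, the anchoring fibril chain of skin, had 13.2 FPKM in A1 and between 6.00 and 6.81 in the other libraries. *Col8a1*, a network-forming chain, and *Col6a4* had means of 0.603 and 0.305 FPKM. *Col4a3bp*, the ceramide transfer protein, had 20.1 and 18.1 FPKM in A and 13.3 and 13.9 in B, the opposite order from most collagen chains.

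To compare the replicates, a gene was counted as higher in one of them when its mean was at least 1 FPKM, the replicate means of log2(FPKM + 1) differed by at least 1, and the libraries of A and B did not overlap. On this scale the change of genes with low values is understated. By this rule 13 of the 20 chains (65%) were higher in B, where 4.58% of the 10481 genes at that level were. Higher in A were 0 of 20 chains, where 1.57% of all genes were. *Col14a1* and *Col15a1* reached the mean of 1 FPKM only through replicate B. Among the 18 chains with at least 1 FPKM in both replicates, 12 were higher in B, beside 4.15% of the 10132 genes at that level.

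The difference was above 0, that is, larger in B, for 18 of the 20 chains, beside 46.2% of all 10481 genes. The exceptions were *Col7a1* (-0.56) and *Col11a2* (-0.33). The size for *Col7a1* depended on the libraries of A, with -0.12 without A1 and -0.99 without A2. For chains near 0 the sign turned when a library was left out: *Col11a2* had 0.04 without A1, *Col16a1* had -0.02 without A2 and -0.05 without B1, and *Col9a2* had -0.02 without B1. The median difference of the 20 chains was 1.44 on the log2 scale, and that of all 10481 genes was -0.03. The differences of the chains counted as higher ran from 1.31 for *Col13a1* to 2.33 for *Col1a2*, with 2.17 for *Col1a1* and 2.15 for *Col6a2*. The nearest chains that were not counted were *Col15a1* at 0.90, *Col27a1* at 0.83 and *Col4a1* at 0.78, all with libraries that did not overlap. The libraries of *Col7a1* did not overlap either, and there A was the higher. The share of all genes without overlap is not given here. *Col9a2* (0.34) and *Col16a1* (0.25) had overlapping libraries.

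**Figure D2:**
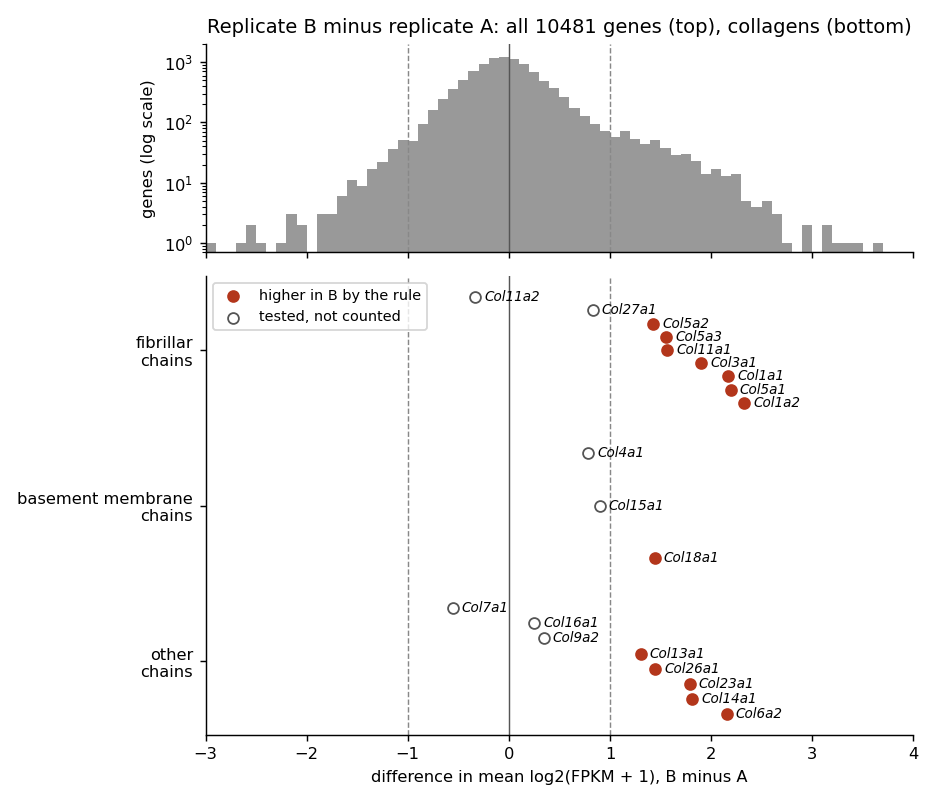
Difference in mean log2(FPKM + 1) between replicate B and replicate A. Top: number of genes (log scale) among the 10481 with a mean of at least 1 FPKM. Bottom: the 20 collagen chains at that level, filled where counted as higher in B and open where not; dashed lines mark a difference of 1 in size. The 13 filled points lie between 1.31 and 2.33, where the distribution of all genes thins out, and the fibrillar chains hold 7 of them.

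By class, 7 of 9 fibrillar chains at that level were higher in B, with a median log2 difference of 1.56. Among basement membrane chains it was 1 of 3, *Col18a1*, with a median of 0.90, and among the other chains 5 of 8, with a median of 1.38. The 0.90 is the value of *Col15a1* itself, which reached the level only through replicate B, as *Col14a1* did among the other chains. Among chains with at least 1 FPKM in both replicates, 7 of 9 fibrillar, 1 of 2 basement membrane and 4 of 7 other chains were higher in B, with medians of 1.56, 1.11 and 1.31. The medians of the smaller classes rest on few chains. Leaving out B2, the other chains had a median of 0.94, and leaving out B1, the basement membrane chains had a median of 1.39.

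The classes also differed as shares of the summed collagen FPKM. Fibrillar chains made up 60.4% and 61.2% of it in the A libraries and 73.8% and 71.1% in the B libraries, a mean of 66.6% ± 8.23. Basement membrane chains made up 19.7%, 21.5%, 9.98% and 15.5%, a mean of 16.7% ± 5.56, and the other chains 19.9%, 17.3%, 16.2% and 13.4%, a mean of 16.7% ± 2.66. In each class the libraries of A and B did not overlap, with the fibrillar share larger in B and both remaining shares larger in A. *Col1a1*, *Col1a2* and *Col3a1* alone held 53.5% of the sum in A and 66.1% in B. With *Col1a2* taken from its coverage, the fibrillar share was 57.6% in A and 69.1% in B. The basement membrane share was then 22.3% and 14.3%. The shares rest on 10 fibrillar, 5 basement membrane and 12 other chains. Chains not analysed, such as *Col4a2* and *Col6a1*, are missing from them.

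In absolute terms each class was larger in B. The summed FPKM of fibrillar chains was 577 in A and 2429 in B, a 4.21-fold difference. The sum of basement membrane chains was 2.24-fold larger in B and that of the other chains 2.79-fold. All 27 chains together had 980.4 and 918 FPKM in the A libraries and 3012 and 3709 in the B libraries. As a part of all mRNA, measured by TPM, in which each library has the same total, the chains made up 0.172% and 0.153% in the A libraries and 0.492% and 0.617% in the B libraries.

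**Figure D3:**
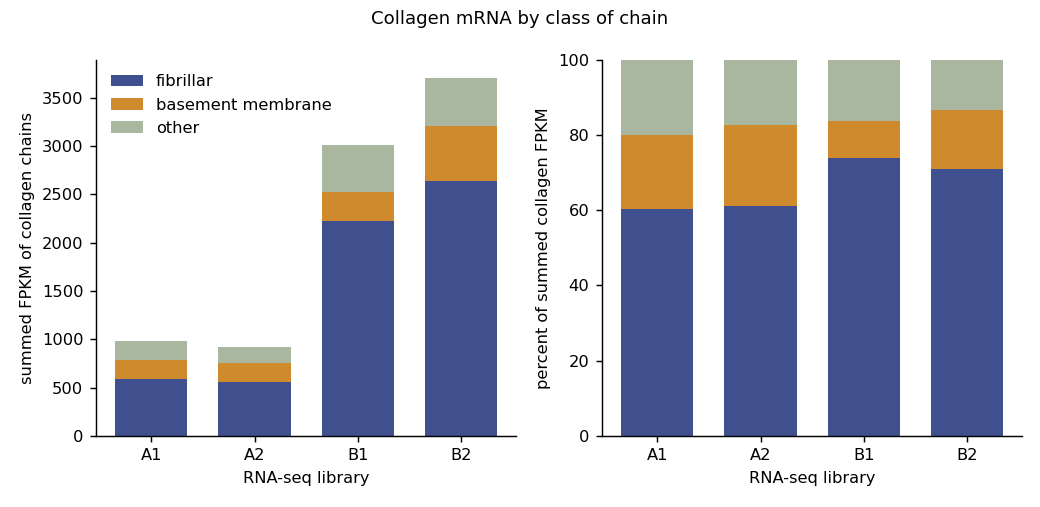
Summed FPKM of fibrillar, basement membrane and other collagen chains in each library (left) and the same as percent of the library's collagen sum (right). The bars of B1 and B2 reach 3012 and 3709 FPKM against 980.4 and 918 in A1 and A2, and the fibrillar part is 71.1% to 73.8% in B against 60.4% to 61.2% in A.

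For the collagen chains, the technical libraries of B were less alike than those of A. Of the 20 chains, 10 differed more than 1.5-fold within the B pair and 4 within the A pair. Such counts were not made over all genes, so whether this is particular to collagens was not tested. The chains *Col4a1* and *Col13a1* were more than 2-fold apart in B, with B2 at 2.32 and 2.55 times B1, and 0 chains were so in A. B2 was also sequenced less deeply, with a coverage of 6.83 per FPKM against 22.7 to 24.4 in the other libraries. The part of depth in these differences was not tested. Of the 13 chains higher in B, 8 had B2 above B1. Without B2, 12 of the 13 were still counted as higher in B, and *Col13a1*, at 0.65, was not.

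Collagen chains are modified and folded in the endoplasmic reticulum, trimmed and cross-linked outside the cell, and later bound by receptors and broken down. Of 45 listed genes of this pathway, 35 had at least 1 FPKM, and of these 16 were higher in B and 0 in A, beside 4.58% and 1.57% of all 10481 genes. Their median log2 difference was 0.97. Without B2, 13 of the 16 were still counted, and *Serpinh1* (0.67), *Fkbp10* (0.93) and *Loxl1* (0.65) were not.

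Hydroxylation and glycosylation enzymes act on the unfolded chains. All 14 listed were at 1 FPKM or more, and 3 were higher in B. *P4ha2*, a catalytic subunit of prolyl 4-hydroxylase, had 4.33 and 4.09 FPKM in the A libraries and 14.8 and 15.9 in the B libraries. *P4ha3*, another such subunit, had 5.66 and 5.28 in A and 12.5 and 14.6 in B, and *Plod1*, a lysyl hydroxylase, had 30.2 and 27.7 in A and 60.4 and 69.1 in B. *Ppib*, a proline isomerase and the most abundant of the list, had 654, 705, 744 and 798 FPKM, a log2 difference of 0.18. The list's median difference was 0.37.

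Folding and export genes had a median difference of 1.06, with 4 of 6 higher in B, and 2 of these without B2. *Serpinh1*, the collagen chaperone HSP47, was the most abundant, with 274 and 293 FPKM in the A libraries and 452 and 718 in the B libraries, and its 2.06-fold difference between replicate means was near the limit of the rule. *Creb3l1*, a transcription factor that drives collagen secretion, had 19.9 and 23.5 FPKM in A and 55.4 and 114 in B. *Fkbp10*, a chaperone, and *Sec24d*, a coat protein of export vesicles, differed by 1.12 and 1.22.

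Of the procollagen processing genes 2 of 4 were higher in B. *Pcolce*, which enhances the removal of the C-terminal propeptide, had 51.9 and 54.6 FPKM in A and 146 and 157 in B. *Adamts2*, which removes the N-terminal propeptide, had 4.32, 4.81, 13.6 and 20.0 FPKM. *Bmp1*, the C-proteinase itself and the most abundant of the list, had 261 and 161 FPKM in the A libraries and 167 and 121 in the B libraries, and its libraries did not show the order of most collagens. The list's median was 0.58.

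Cross-linking enzymes at 1 FPKM or more were *Loxl1*, *Loxl2* and *Loxl3*, and all 3 were higher in B, by 1.24, 1.40 and 1.19, though without B2 only *Loxl2* and *Loxl3* were counted. *Loxl1*, the most abundant, had 73.3 and 77.3 FPKM in the A libraries and 119 and 271 in the B libraries. Of the receptors 1 of 4, *Ddr2*, a receptor kinase for fibrillar collagen, was higher in B, with 1.99 and 1.61 FPKM in A and 10.05 and 13.1 in B. *Ddr1*, its relative and the most abundant receptor of the list, had 178, 168, 130.1 and 169 FPKM, a log2 difference of -0.22. The median of the receptors was 0.61.

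Turnover genes were higher in B in 3 of 4 cases, with a median of 1.13. *Ctsk*, the collagenolytic protease cathepsin K and the most abundant of these, had 45.0 and 47.1 FPKM in A and 101 and 94.7 in B. *Mmp2*, a gelatinase, had 39.0, 40.4, 86.3 and 97.3 FPKM, and *Mrc2*, a receptor that takes up collagen fragments, had 8.46, 5.39, 19.3 and 28.4. *Mmp8*, a neutrophil collagenase, was listed at 0 in every library.

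Markers of cell types that a cortical culture could hold were read beside the collagens. All 12 mesenchymal and meningeal markers were at 1 FPKM or more with none at 0, and 11 of them (the exception was *Prrx1*, 0.38) were higher in B, beside 4.58% of all genes tested. Their summed level was 246 to 252 FPKM in A and 969 to 1043 in B. Among them *Dcn*, decorin of the fibril surface, had 41.8 and 42.8 FPKM in A and 207 and 217 in B, *Pdgfra*, a receptor of mesenchymal cells, had 9.50 and 9.09 in A and 59.5 and 59.4 in B, and *Foxc1*, a regulator of the meninges, had 14.2 and 14.1 in A and 29.4 and 115 in B. Without B2, fewer of these markers passed the rule, and the summed level of B1 alone was 969 FPKM. Their part in the collagen differences was not tested, and in bulk samples fewer cells of a type and less RNA per cell cannot be told apart.

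The label of the cells was checked against 9 neural progenitor markers, which were all at 1 FPKM or more. Of these, 4 had a difference above 0 and 5 below it, where 46.2% of all 10481 genes were above 0. *Fabp7*, a lipid-binding protein of radial glia, and *Hes5*, a target of Notch signalling, were higher in A, with log2 differences of -1.56 and -1.15, and 0 were higher in B, beside 1.57% of all genes higher in A and 4.58% higher in B. The summed level of the list was 21024 to 23126 FPKM in A and 10084 to 10889 in B, of which *Fabp7* made up most, with 16800 and 18557 FPKM in A and 6520 and 5485 in B. Without *Fabp7* the sums overlapped, at 4224 and 4568 FPKM in A and 3564 and 5404 in B, and *Vim* made up most of what was left. Without *Fabp7* and *Vim* they did not overlap, at 1342 and 1398 FPKM in A and 913 and 946 in B. *Sox2*, *Sox9* and *Pax6* had log2 differences of -0.59, -0.45 and -0.40, and *Nes*, *Vim*, *Slc1a3* and *Prom1* had log2 differences of 0.12, 0.19, 0.06 and 0.25. *Sox2*, the transcription factor of neural stem cells, had 558 and 592 FPKM in A and 406 and 356 in B.

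The remaining lists were read in the same way. Endothelial markers were at low levels, with 0 of 8 at a mean of 1 FPKM and a sum of 1.39 to 1.57 FPKM in A, 2.17 in B1 and 6.03 in B2. *Cdh5*, which defines endothelial cells, had 0.130 and 0.126 FPKM in A, 0.266 in B1 and 1.002 in B2. The library with the highest endothelial sum, B2, was also the one with the highest *Col4a1* level, and the part of these cells in that level was not tested. Microglia and blood markers had sums of 1.05 to 1.93 FPKM, with 0 of 6 at 1 FPKM. Of the pericyte markers 2 of 6 reached 1 FPKM, with sums of 44.9 to 54.8 in A and 47.3 to 60.3 in B. These 2 differed in opposite directions, *Pdgfrb* by 0.80 and *Notch3* by -0.74 on the log2 scale, each with libraries that did not overlap. Cartilage markers reached 1 FPKM in 2 of 5 cases and summed to 6.23 to 8.18 FPKM. *Acan*, the defining proteoglycan of cartilage, did not exceed 0.0504 FPKM. Neuronal markers summed to 146 and 167 FPKM in A and 125 and 138 in B, with 5 of 7 at that level. In the pericyte, neuron and cartilage lists 0 of 2, 0 of 5 and 0 of 2 genes were counted as different between the replicates, counts too small to set against the 4.58% and 1.57% of all genes.

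**Figure D4:**
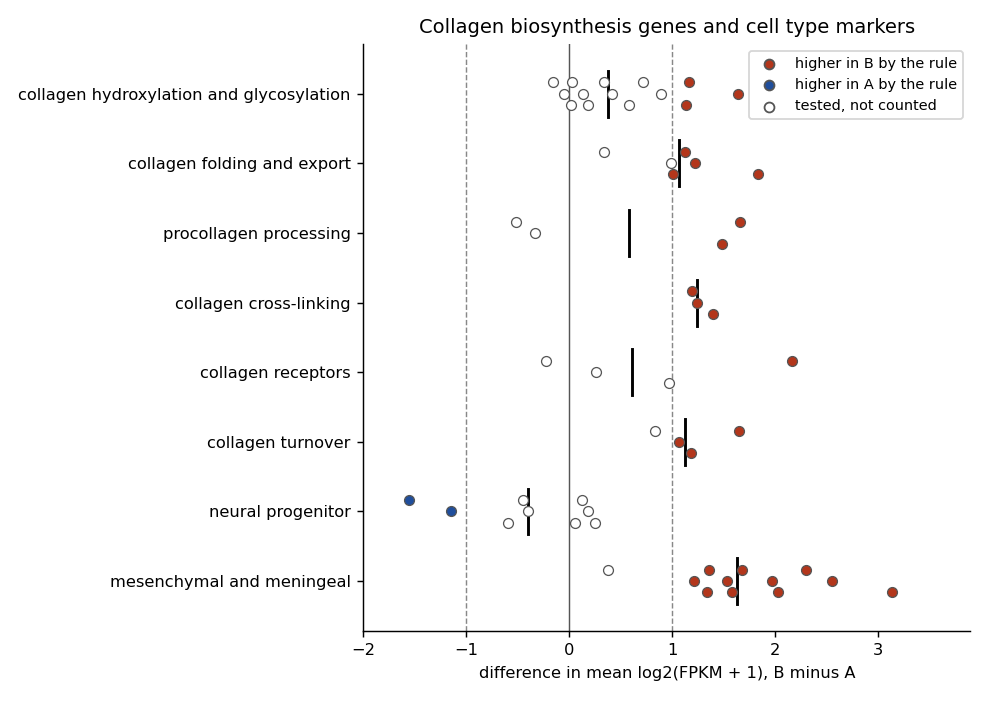
Difference in mean log2(FPKM + 1) between replicate B and replicate A for genes that reached a mean of 1 FPKM in 6 lists of the collagen pathway and in the neural progenitor and mesenchymal and meningeal marker lists. Each point is a gene (red, higher in B; blue, higher in A; open, not counted), the black bar is the list's median and dashed lines mark 1 in size. Mesenchymal and meningeal markers have a median of 1.63 and 11 red points, and neural progenitor markers have a median of -0.40 and 2 blue points.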

How the data were processed

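PolyA RNA was sequenced from 2 biological replicates of cortical neural progenitors, each as 2 technical libraries. The 2 Start-seq samples were left out. Alignment to rn6 was done by the authors with STAR. The deposited FPKM are fragments scaled to transcript length and library depth. The authors also deposited TPM, which scales to the sum of all transcripts. The coverage was deposited as unscaled mean read depth per gene. The tables have the layout of StringTie, whereas the methods name other R packages for FPKM, and whether the counting used strand is not given in the sources used here. Libraries were assigned to replicates by their labels.

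FPKM was summed over rows of a gene name and averaged within replicates. Depth was read as coverage per FPKM. Differences were counted by the rule in the report. The members, their classes and the lists were chosen with earlier results of these data known. Values in all libraries are given for chains of at least 10 FPKM, type IV chains, partner chains and chains counted as different, and, in each pathway list, genes counted as different and the most abundant gene are named. Other genes named, such as single markers, were chosen after their values were seen. Alternatives were other FPKM limits, a pseudocount of 0.1, a log2 difference of 0.58, TPM, scaled libraries, other classes and each library left out. The reading of *Col1a2* from coverage, the alternatives for single chains, pathway genes and markers, and the progenitor sum without *Fabp7* or without *Fabp7* and *Vim* were added after the data were seen. A description of the protein repeats was planned and not run. Ratios of type IV, VI, VIII and IX chains whose partner was not analysed were left out. Python 3.11.15, pandas 2.3.3, numpy 2.4.6 and matplotlib 3.10.9 were used.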

Additional observations from a re-analysis of the deposited data

Results flagged for a closer look

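Among 24 collagen values screened over the 4 libraries (20 chains, 3 class shares and the share of TPM), 2 had 1 library far from the others. *Col4a1* had 316 FPKM in B2, where the other libraries had 118 to 136 FPKM. *Col7a1* had 13.2 FPKM in A1, where the others had 6.00 to 6.81 FPKM. Chance gives about 1 in 20 such values among independent samples, and these libraries form technical pairs, so that rate is a rough guide only.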

How the results depend on the processing

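Of 198 alternative values, 75 were of counts, shares, ratios and medians, and of these 65 were close to the reported value and 10 moved. A count, share or ratio has no sign, so only the medians of log2 differences could turn, and all of these stayed above 0. For counts, close was a broad label that took in 22 pathway genes where 16 were reported. The count of chains at a mean of at least 1 FPKM, 20, was 12 at 10 FPKM. The fibrillar share was 57.2% without *Col3a1*, and the basement membrane share was 9.60% when limited to type IV chains. The ratio of *Col1a1* to *Col1a2* was 2.18 with *Col1a2* from its coverage. With a pseudocount of 0.1 the fibrillar median difference was 1.76 and that of basement membrane chains 1.45. With no minimum level the median of the other chains was 0.30, since low chains then enter. Leaving out 1 library at a time, the medians ranged from 1.52 to 1.77 for fibrillar, 0.65 to 1.39 for basement membrane and 0.94 to 1.56 for other chains. In the same alternatives the lowest differences of the 13 chains counted as higher in B were 0.65 (*Col13a1* without B2) and 1.09 (*Col5a3* without B1). The most negative difference of any chain was -0.99, for *Col7a1* without A2. A log2 difference of 0.58 gave 16 chains, beside 9.33% of all genes. For single chains, *Col15a1* passed at a pseudocount of 0.1 (1.77) and without B1 (1.16), *Col27a1* without A1 (1.18) and *Col4a1* without B1 (1.39; without B2 it was 0.18), and *Col13a1* was lost without B2 (0.65). Uncounted chains near 0 turned sign in 4 values (*Col11a2*, *Col16a1*, *Col9a2*). Of the 16 pathway genes, *Serpinh1*, *Fkbp10* and *Loxl1* fell to 0.67, 0.93 and 0.65 without B2. The pathway count was 11 of 26 tested at 10 FPKM, beside 3.6% of all genes. At a log2 difference of 0.58 it was 22 of 35, beside 9.33%. The cause was not tested. Among the 65, 8 shares could not move by construction: 4 with 1 replicate left out, which lie within the SD when n = 2, and 4 that stayed identical (TPM for both shares, and the fibrillar share under other basement membrane classes). Scaling of the libraries used factors of 0.991 to 1.01. A paired analysis was not run, because the result comes from no test and there is 1 condition. The reading that pairs A1 with B1 and A2 with B2 was not followed. With 2 replicates the spread between cultures is poorly known, and values of low chains in B2 rest on fewer reads.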
